A study of Mus musculus with 13 samples.

Results

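A set of 10 chemokine and chemokine receptor genes was followed across 4 genotypes by RNA-Seq of Lin-cKit+ BM cells, which are marrow cells without mature lineage markers, HSPCs included. These were the receptors *Cxcr4*, *Ccr1*, *Ccr2*, and *Cx3cr1*, the CC chemokines *Ccl3*, *Ccl4*, *Ccl6*, and *Ccl9*, and the CXC chemokines *Cxcl2* and *Cxcl10*. The genes were taken by name from the 54838 genes of the count table, all 10 were found, and all 10 passed the filter on low counts, *Cxcl2* through its NPmut libraries alone. The groups were 3 control mice with *Mx1-Cre* alone, 3 p53mut mice that also carried 1 p53 R172H allele, 3 NrasG12D mice that carried 1 Nras G12D allele, and 4 NPmut mice that carried both alleles with *Mx1-Cre*. Cre activates each mutant allele at its endogenous locus, and *Mx1-Cre* is itself switched on by interferon, so that it acts in blood cells and in other tissues that respond to interferon. Control, p53mut, and NrasG12D mice were given 3 intraperitoneal doses of 100 μg pI-pC, a double-stranded RNA analog that induces interferon, from about 6 weeks of age. NPmut mice were given no pI-pC, relied on leaky Cre, and were moribund with leukemia when sampled, whereas the other groups were matched to them in age. The NPmut genotype, the lack of pI-pC, and end-stage disease therefore cannot be told apart in these data. For the NrasG12D mice the genotype label reads G21D whereas the sample names read G12D, and the name NrasG12D is used here.

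Chemokines are small secreted proteins that bind G protein-coupled receptors and direct the movement of leukocytes. The CC and CXC classes are named for the spacing of their first cysteines, and many receptors bind several ligands. In BM, CXCR4 holds HSPCs and immature myeloid cells near stromal cells that make CXCL12, whereas CCR2 is needed for monocytes to leave the marrow for the blood. Several chemokine genes are rapidly induced targets of NF-κB in myeloid cells, and *Cxcl10* is also a classical interferon-stimulated gene.

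Libraries held 12576174 to 29124022 counts, with the smallest and the largest both among NPmut mice. *Kit*, which encodes the receptor used for the sort, was at 284 to 710 CPM in all 13 libraries, whereas *Cd3e*, which defines T cells, stayed at or below 0.517 CPM. Some other markers were higher. *Nkg7*, of the T and NK markers, was at 35.7 to 66.5 CPM, and *S100a9*, of the neutrophil and GMP markers, was at 3.55 to 92.3 CPM. The purity of the sort was not tested. Reads on 1967 olfactory and vomeronasal receptor genes, which blood progenitors are not known to express, summed to 109 to 202 CPM in control mice, 63.1 to 147 CPM in p53mut mice, 40.3 to 47.6 CPM in NrasG12D mice, and 18.4 to 61.0 CPM in NPmut mice. This background moved with the groups, and calls of the 10 genes in NPmut mice that change when it is added to the model are named beside the results.

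The promoter sequences of 5 of the genes are shown. *Cxcl2*, *Cxcl10*, *Ccr1*, and *Ccl9* are those that hold a match to the κB consensus, the sequence bound by NF-κB, and *Ccl3*, whose levels moved with those of *Cxcl2* among NPmut mice, holds none. Of the 10 genes, 9 had a promoter in the RefSeq table (GRCm38.p6), and *Ccl4* is named only. Each sequence runs 5′ to 3′ on the strand of its gene, and capitals mark matches to the κB consensus and, in *Cxcl10*, also to the interferon-stimulated response element.

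Cxcl2, chr5:90903649-90903948 (+): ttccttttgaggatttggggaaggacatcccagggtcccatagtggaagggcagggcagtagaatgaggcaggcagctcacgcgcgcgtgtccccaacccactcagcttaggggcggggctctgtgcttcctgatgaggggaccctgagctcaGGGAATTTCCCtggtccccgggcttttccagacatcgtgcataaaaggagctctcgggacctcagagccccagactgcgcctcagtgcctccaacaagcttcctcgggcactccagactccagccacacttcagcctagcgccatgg

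Cxcl10, chr5:92348840-92349139 (-): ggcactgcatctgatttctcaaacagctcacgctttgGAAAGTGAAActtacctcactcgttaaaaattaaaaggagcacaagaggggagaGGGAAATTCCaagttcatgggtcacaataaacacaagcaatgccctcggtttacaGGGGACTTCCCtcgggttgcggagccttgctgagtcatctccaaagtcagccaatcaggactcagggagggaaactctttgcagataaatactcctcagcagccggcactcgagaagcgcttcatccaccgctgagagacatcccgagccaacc

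Ccr1, chr9:123968643-123968942 (-): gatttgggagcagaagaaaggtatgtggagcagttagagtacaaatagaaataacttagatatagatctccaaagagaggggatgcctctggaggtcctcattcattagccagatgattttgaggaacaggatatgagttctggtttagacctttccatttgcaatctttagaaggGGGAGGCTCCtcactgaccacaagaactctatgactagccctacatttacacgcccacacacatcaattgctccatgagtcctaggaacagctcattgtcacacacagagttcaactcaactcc

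Ccl9, chr11:83578587-83578886 (-): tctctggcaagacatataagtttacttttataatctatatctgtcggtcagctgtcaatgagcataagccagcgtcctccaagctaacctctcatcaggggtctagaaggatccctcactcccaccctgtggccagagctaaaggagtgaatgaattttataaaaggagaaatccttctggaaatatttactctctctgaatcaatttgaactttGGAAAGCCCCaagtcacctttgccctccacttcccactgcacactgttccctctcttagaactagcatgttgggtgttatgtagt

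Ccl3, chr11:83649329-83649628 (-): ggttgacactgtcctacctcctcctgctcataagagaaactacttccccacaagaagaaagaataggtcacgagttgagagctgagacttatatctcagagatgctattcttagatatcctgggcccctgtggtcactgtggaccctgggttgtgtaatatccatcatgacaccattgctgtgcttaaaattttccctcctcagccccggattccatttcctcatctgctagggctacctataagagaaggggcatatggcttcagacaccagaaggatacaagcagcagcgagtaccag

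A κB match was found in 4 of the 9 promoters on either strand, in *Ccr1*, *Ccl9*, *Cxcl2*, and *Cxcl10*, and in 8.46% of 32851 promoters of the same length. The match of *Cxcl2*, GGGAATTTCC, lies at positions -97 to -88 from the annotated start, and a match on the opposite strand overlaps it by all but 1 base. *Cxcl10* holds GGGAAATTCC at positions -159 to -150 and GGGGACTTCC at -104 to -95, the latter overlapping a further match, and it is the only 1 of the 9 with the interferon-stimulated response element (GAAA on both sides of any 2 bases), which 3.44% of all promoters hold. The AP-1 motif TGANTCA was found in *Ccl9* and *Cxcl10*, against 7.81% of all promoters, and the ETS core GAGGAA in *Ccr1*, *Ccl3*, and *Cxcl2*, against 28.3%. A TATAAA box was found in *Cxcr4* and *Ccl9*, against 13.6%. These matches describe the letters of the windows only.

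The 10 genes lie on 4 chromosomes of GRCm38. *Ccl9* (ENSMUSG00000019122, chr11:83572919-83578636), *Ccl6* (ENSMUSG00000018927, chr11:83587882-83593087), *Ccl3* (ENSMUSG00000000982, chr11:83647844-83649355), and *Ccl4* (ENSMUSG00000018930, chr11:83662584-83664683) form a cluster in which 9.24 kb separate *Ccl9* from *Ccl6*, 54.8 kb separate *Ccl6* from *Ccl3*, and 13.2 kb separate *Ccl3* from *Ccl4*. *Ccr1* (ENSMUSG00000025804, chr9:123962124-123968692) and *Ccr2* (ENSMUSG00000049103, chr9:124101950-124113557) are 133 kb apart, on the same chromosome as *Cx3cr1* (ENSMUSG00000052336, chr9:119901616-120069879). *Cxcl2* (ENSMUSG00000058427, chr5:90903871-90905938) and *Cxcl10* (ENSMUSG00000034855, chr5:92346638-92348889) share chromosome 5, and *Cxcr4* (ENSMUSG00000045382) is at chr1:128588199-128592293. All 10 are protein-coding, and counts cover their exons. *Cxcl10* shares 133 exonic bases with *Art3* and *Cx3cr1* shares 78 with *Gm33858*, both on the opposite strand, and since the strand setting of the counting is not given in the sources used here, reads in those bases could belong to either gene.

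Levels per kilobase of exon (RPKM) placed *Cxcr4* and *Ccl9* at the top in control mice, at 33.6 ± 5.60 and 28.1 ± 5.47 RPKM (SD, n = 3), with overlapping ranges. *Ccr2* followed at 7.27 ± 1.38 RPKM, apart from both neighbors. *Ccl4*, *Cx3cr1*, *Ccl6*, and *Ccl3* lay between 1.74 and 2.61 RPKM, and each overlapped the next. *Ccr1*, *Cxcl10*, and *Cxcl2* were lowest, at 0.347, 0.214, and 0.0367 RPKM. In NPmut mice *Cxcr4* (74.2 ± 23.0 RPKM, n = 4), *Ccl9* (42.3 ± 11.3), and *Ccr2* (19.4 ± 7.12) again had the highest means, but *Ccl3* had moved from the seventh to the fourth place with 14.6 ± 9.71 RPKM, and its range overlapped those of *Ccr2* and *Ccl4*.

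**Figure D1:**
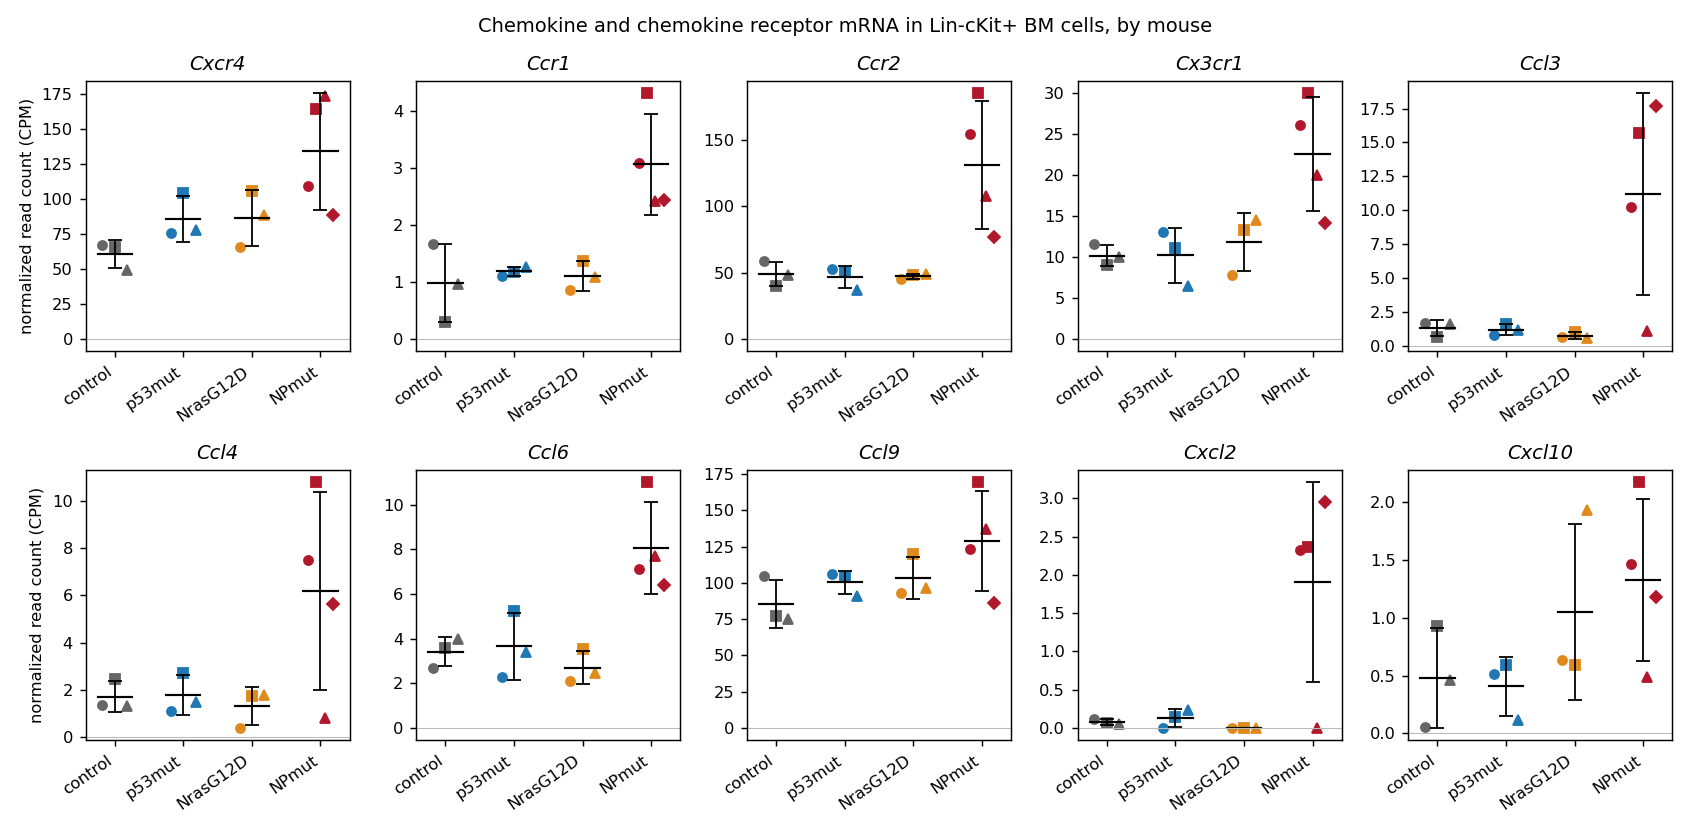
Each panel plots the normalized read count (CPM, y axis, linear) of 1 gene for every mouse of the 4 genotypes (x axis), with the mean as a line and the SD as bars; circles, squares, triangles, and diamonds are replicates 1 to 4. The NPmut mice lie above every control mouse for *Cxcr4*, *Ccr1*, *Ccr2*, *Cx3cr1*, and *Ccl6*, whereas NPmut mouse 3 (triangle) lies near or below the control mice for *Ccl3*, *Ccl4*, and *Cxcl2*.

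The comparison of NPmut with control mice asked how chemokine genes differ in leukemic HSPCs. *Cxcl2* was set aside from the counts, since a gene that passes the filter through its NPmut libraries alone has to be high there. Of the other 9 genes, 6 were DEGs with higher levels in NPmut mice (differentially expressed genes, with an adjusted p-value below 0.05 in edgeR's quasi-likelihood test and a change of 2-fold or more) and 0 were lower, whereas 2.27% of the 17795 genes tested were higher and 3.71% were lower. The 6 were all 4 receptors and the chemokines *Ccl3* and *Ccl6*. The 10 genes, and the gene lists measured beside them, were chosen with earlier results of these data known. Their counts against the shares of all genes are therefore a description and not an independent test. The median log2 fold change of the 9 genes was 1.42, and that of all genes tested was 0.01. *Cxcl2* was a DEG as well, and its values are given with this limit. For 5 genes every NPmut mouse exceeded every control mouse, as was the case for 10.2% of all genes. The groups consist of separate mice, and lower numbers of a cell type and less RNA per cell cannot be told apart in bulk RNA.

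*Cxcr4*, the CXCL12 receptor, was at 67.2, 66.0, and 49.1 CPM in the 3 control mice and at 109, 165, 174, and 88.8 CPM in the 4 NPmut mice. The groups did not overlap, and NPmut mouse 4 was the lowest of its group. On the log2 scale the difference was 1.14 ± 0.237 (SE, adjusted p = 0.00790, edgeR). The call held in all 16 alternative analyses, with adjusted p-values up to 0.0499.

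*Ccr2*, the receptor for CCL2 on inflammatory monocytes, stood at 58.9, 40.3, and 48.2 CPM in control mice and at 155, 185, 108, and 77.1 CPM in NPmut mice. Every NPmut mouse was above the control mice, and mice 1 and 2 were at 3.15 and 3.77 times the control mean. The log2 fold change was 1.42 ± 0.248 (adjusted p = 0.00304, edgeR), and this call also held in all 16 alternatives (adjusted p up to 0.0490).

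*Cx3cr1* encodes the receptor for the membrane-bound chemokine CX3CL1 and marks monocytes and macrophages. It was at 11.6, 8.996, and 9.98 CPM in control mice and at 26.2, 30.01, 20.1, and 14.2 CPM in NPmut mice, without overlap, a log2 fold change of 1.15 ± 0.286 (adjusted p = 0.0189, edgeR). Leaving out control mouse 2 gave an adjusted p-value of 0.0752, leaving out control mouse 3 one of 0.0775, and adding the background reads to the model one of 0.0812. With single mice left out the log2 fold change fell as low as 0.987, under the 2-fold change that a DEG needs.

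*Ccr1*, a receptor for CCL3, CCL6, and CCL9, had low counts, at 29, 5, and 19 reads in control mice and 61, 113, 45, and 29 in NPmut mice. In CPM these were 1.67, 0.308, and 0.972 against 3.09, 4.31, 2.42, and 2.44, so that the groups did not overlap and control mouse 2 lay far below the others. On the log2 scale the difference was 1.64 ± 0.441 (adjusted p = 0.0276, edgeR). Without control mouse 2 it was 1.25 (adjusted p = 0.0813), the adjusted p-value was also above 0.05 without control mouse 3 (0.0996), NPmut mouse 1 (0.0528), or NPmut mouse 2 (0.0569), and it was 0.220 with the background reads in the model.

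*Ccl3* encodes MIP-1α, a ligand of CCR1 that is known to restrain the cycling of stem cells. It was at 1.73, 0.678, and 1.59 CPM in control mice and at 10.3, 15.7, 1.08, and 17.7 CPM in NPmut mice. Mice 1, 2, and 4 were at 7.72, 11.8, and 13.3 times the control mean, whereas NPmut mouse 3, at 0.809 times, lay within the control range. Over all 4 mice the log2 fold change was 3.05 ± 0.697 (adjusted p = 0.0139, edgeR). The call was lost without control mouse 2 (0.0610) or control mouse 3 (0.0587) and with the background reads in the model, where the log2 fold change was 1.73 (adjusted p = 0.371).

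*Ccl4*, the neighbor of *Ccl3* and the gene for the chemokine MIP-1β, showed the same split of the NPmut mice. Its levels were 1.38, 2.47, and 1.33 CPM in control mice and 7.49, 10.8, 0.807, and 5.65 CPM in NPmut mice, so that mouse 3 fell below every control mouse and the other NPmut mice lay above. A log2 fold change of 1.85 ± 0.678 did not pass the test (adjusted p = 0.100, edgeR). Without NPmut mouse 3 it was 2.23 with an adjusted p-value of 0.00976, and DESeq2 with all mice gave an adjusted p-value of 0.0336.

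*Cxcl2*, a ligand of CXCR2 that attracts neutrophils, was nearly silent outside NPmut mice, with 2, 1, and 1 reads in control mice, 0, 2, and 4 in p53mut mice, and 0 in each NrasG12D mouse. NPmut mice had 46, 62, 0, and 35 reads, or 2.33, 2.36, 0, and 2.95 CPM, so that again NPmut mouse 3 stood apart. Of its libraries, 3 had at least 10 reads, all of NPmut mice, so that the gene could be tested only because it was high there. Without NPmut mouse 1, 2, or 4 it fell below the filter and was not tested. Its log2 fold change was 4.53 ± 1.22 (adjusted p = 0.0336, edgeR). Summed reads were 143 against 4. Divided by the summed scaled library sizes of each group, their ratio was 24.9 (95% counting interval 9.501 to 92.5). The call was lost without any 1 of the control mice (0.0946, 0.108, and 0.132), and the log2 fold change was 2.34 (adjusted p = 0.454) with the background reads in the model.

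*Ccl6* and *Ccl9* encode chemokines that myeloid cells make constitutively and that act through CCR1. *Ccl6* was at 2.70, 3.57, and 3.99 CPM in control mice and at 7.13, 11.02, 7.70, and 6.405 CPM in NPmut mice, without overlap, and its log2 fold change was 1.24 ± 0.307 (adjusted p = 0.0185, edgeR). That call was lost without any 1 of the control mice (0.0813, 0.0543, and 0.0507) and with the background reads in the model (0.0682). *Ccl9* was at 105, 76.96, and 75.1 CPM in control mice and at 123, 170, 137, and 86.1 CPM in NPmut mice, where mouse 4 lay within the control range. Its log2 fold change of 0.59 ± 0.190 did not pass the test (adjusted p = 0.0597, edgeR). With the background reads in the model *Ccl9* was a DEG, at a log2 fold change of 1.11 (adjusted p = 0.0495). It also passed the test at less than 2-fold with DESeq2 (0.0342), without a filter (6.26e-05), with the replicate block (0.00482), and without control mouse 1 (0.0401) or NPmut mouse 4 (0.00765).

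*Cxcl10*, a ligand of CXCR3, was low in all groups, at 0.0575, 0.924, and 0.461 CPM in control mice and 1.47, 2.17, 0.484, and 1.18 CPM in NPmut mice. These levels overlapped, and the log2 fold change of 1.48 ± 0.744 did not pass the test (adjusted p = 0.230, edgeR, 95% interval -0.11 to 3.06). Reads in the exonic bases it shares with *Art3* are included in these values.

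**Figure D2:**
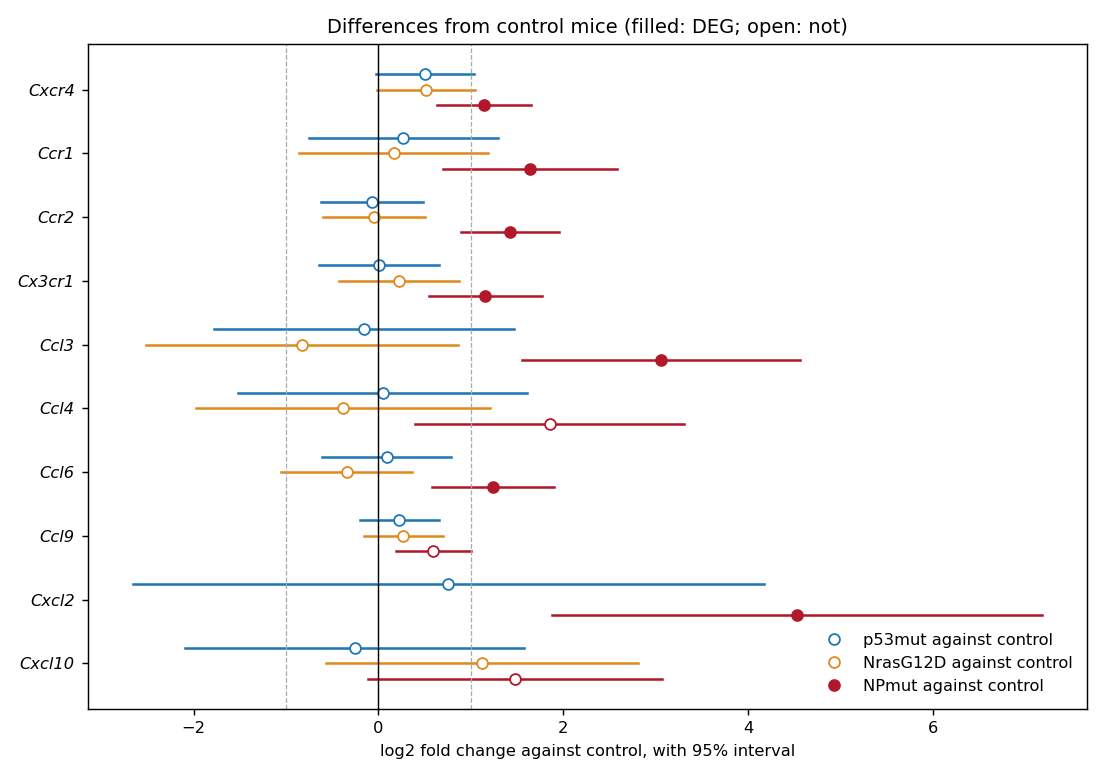
The log2 fold change against control mice (x axis) with its 95% interval is plotted for each of the 10 genes (y axis) and for p53mut, NrasG12D, and NPmut mice; filled circles are DEGs, dashed lines mark a fold change of 2, and *Cxcl2* in NrasG12D mice is left out because all 3 libraries are at 0. All 7 filled circles belong to NPmut mice.

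In neither single mutant did any of the 10 genes pass the test against control mice. In p53mut mice 0 of the 10 were DEGs by edgeR and by DESeq2, 0 had an unadjusted p-value under 0.05, and 0% of all genes were DEGs by edgeR while 2.32% had such a p-value. In NrasG12D mice 0 of the 10 were DEGs by both tools and 0 had an unadjusted p-value under 0.05, against 0.00562% and 9.10% of all genes. The median log2 fold changes of the 10 genes were 0.07 in p53mut and 0.06 in NrasG12D mice. These comparisons share the control mice with that of NPmut mice.

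*Cxcr4* had intermediate levels in the single mutants, at 75.6, 105, and 77.7 CPM in p53mut mice and at 66.0, 106, and 88.7 CPM in NrasG12D mice. All p53mut mice were above the control mice, as was the case for 5.41% of genes, and NrasG12D mice overlapped them. Their log2 fold changes were 0.50 ± 0.248 (adjusted p = 0.9997, edgeR) and 0.51 ± 0.248 (adjusted p = 0.561), with 95% intervals of -0.03 to 1.03 and -0.02 to 1.05. *Ccr2* by contrast was at 52.9, 50.7, and 37.2 CPM in p53mut mice and at 45.3, 48.1, and 49.1 CPM in NrasG12D mice, within the control range but for 1 mouse. Its intervals were -0.62 to 0.49 and -0.60 to 0.50 on the log2 scale. For *Ccl3* the p53mut mice were at 0.813, 1.63, and 1.15 CPM and the NrasG12D mice at 0.631, 1.05, and 0.580 CPM, with intervals of -1.78 to 1.47 and -2.52 to 0.86, which include a 2-fold lower level. *Cxcl10* reached 1.93 CPM in NrasG12D mouse 3 and 0.631 and 0.589 CPM in the others of that group, and its log2 fold change was 1.12 ± 0.791 (adjusted p = 0.738, edgeR).

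Against NrasG12D mice, 4 of the 9 genes other than *Cxcl2* were DEGs with higher levels in NPmut mice and 0 were lower, where 1.84% of all genes were higher and 2.58% lower. In 4 genes every NPmut mouse exceeded every NrasG12D mouse, as in 9.51% of all genes. *Ccl3* differed by 3.88 ± 0.749 on the log2 scale (adjusted p = 0.00678, edgeR). Here NPmut mouse 3, at 1.08 CPM (20 reads), was barely above the highest NrasG12D mouse, at 1.05 CPM (16 reads). *Ccr2* differed by 1.47 ± 0.248 (adjusted p = 0.00351) and *Ccl6* by 1.58 ± 0.315 (adjusted p = 0.00672), both without overlap. *Ccr1* differed by 1.47 ± 0.440 with an adjusted p-value of 0.04996, just under the threshold, and lost this call in 10 of 15 alternatives. *Cxcl2*, set aside because of the filter, had 0 reads in every NrasG12D mouse and in NPmut mouse 3. Its ratio of means was 10.2 with each NrasG12D library set at a floor of 3 counts, and this ratio was not tested. The edgeR fit to the counts themselves gave an adjusted p-value of 0.0167. That call was lost without any 1 of the NrasG12D mice (0.0630, 0.0598, and 0.0531). With *Cxcl2* counted, 3 genes were called without any 1 of the NrasG12D mice. The number was also 3 without NPmut mouse 1 or 2, where *Cxcl2* fell below the filter and was not tested. With the background reads in the model *Ccr1* lost its call (0.0567), *Cx3cr1* became a DEG (1.02, adjusted p = 0.0407), and *Cxcr4* passed the test at 0.78 (0.00990).

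Against p53mut mice, 4 of the 9 genes other than *Cxcl2* were DEGs with higher levels in NPmut mice and 0 were lower, where 2.11% of all genes were higher and 3.10% lower. The DEGs were *Ccr2* (log2 fold change 1.49 ± 0.249, adjusted p = 0.00255, edgeR), *Cx3cr1* (1.15 ± 0.288, 0.0205), *Ccl3* (3.21 ± 0.715, 0.0125), and *Ccl6* (1.15 ± 0.308, 0.0285). Groups did not overlap for *Ccr1*, *Ccr2*, *Cx3cr1*, and *Ccl6*, as for 8.96% of all genes, whereas for *Ccl3* NPmut mouse 3 lay within the p53mut range. *Ccr1* did not pass the test (1.37 ± 0.439, adjusted p = 0.0629). With the background reads in the model *Cx3cr1* (0.0599), *Ccl3* (log2 fold change 2.15, 0.221), and *Ccl6* (0.0579) lost their calls and *Cxcr4* became a DEG (1.30, 0.0101). *Cxcl2* had 143 reads in NPmut and 6 in p53mut mice and did not pass the test (adjusted p = 0.0598, edgeR). Divided by summed scaled library sizes, the ratio of these reads was 13.8 (95% counting interval 6.20 to 38.3). The number of DEGs was 1 without p53mut mouse 3, 2 without p53mut mouse 1 or NPmut mouse 2, and 6 without NPmut mouse 3. *Ccr2*, *Ccl3*, and *Ccl6* were DEGs against both single mutants and against control mice, and *Cxcr4* was a DEG against control mice alone, with log2 fold changes of 0.63 ± 0.233 against NrasG12D (adjusted p = 0.113) and 0.64 ± 0.233 against p53mut mice (adjusted p = 0.102).

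The interaction asked whether the log2 difference of NPmut mice from control departed from the p53mut and NrasG12D differences added together. *Ccr2* was the 1 DEG among the 10 genes, with an interaction of 1.54 ± 0.355 (adjusted p = 0.0477, edgeR), where 0.393% of all genes were DEGs in this direction and 0.888% in the other. This call was lost in 13 of 20 alternatives. Among them were the removal of any 1 of the control, p53mut, or NrasG12D mice and the addition of the background reads to the model (0.0583). *Ccl3* had the interaction 4.04 ± 1.05 (adjusted p = 0.0688, edgeR) and *Ccl6* 1.49 ± 0.451 (0.108), neither past the test. For *Cxcr4* it was 0.13 ± 0.338 (95% interval -0.60 to 0.85).

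**Figure D3:**
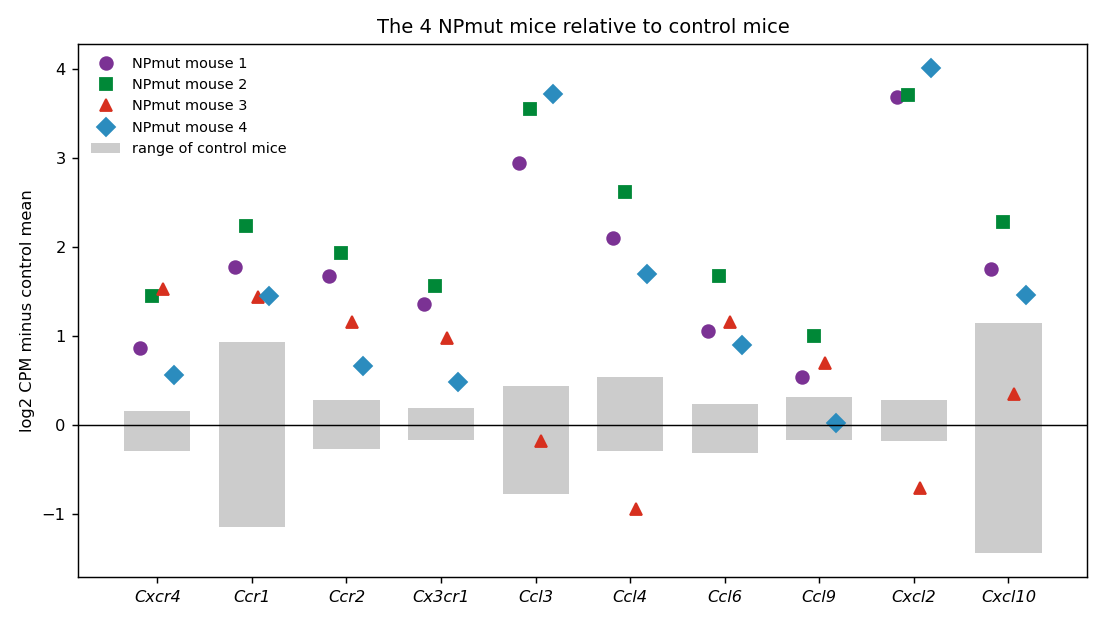
For each gene (x axis), the symbols show log2 CPM of each NPmut mouse minus the mean of the control mice (y axis), and gray bars show the range of the control mice. Mice 1, 2, and 4 lie 1.70 to 4.00 above the control mean for *Ccl3*, *Ccl4*, and *Cxcl2*, whereas mouse 3 lies between -0.94 and -0.18 there but at 1.53 for *Cxcr4*, the highest of the 4.

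The 4 NPmut mice thus differed in which chemokine genes were high. With *Cxcl2* set aside, mice 1 and 2 exceeded every control mouse in all 9 genes and mouse 4 did so in 8, whereas mouse 3 did so in 6, namely the 4 receptors, *Ccl6*, and *Ccl9*. Over all genes tested the shares above every control mouse were 30.5% in mouse 1, 39.4% in mouse 2, 30.3% in mouse 3, and 33.4% in mouse 4. Across the 13 libraries, log2 CPM of *Ccl3* and *Cxcl2* had a Pearson r of 0.967 and that of *Ccl3* and *Ccl4* one of 0.847, whereas *Ccr2* was closest to *Cx3cr1* (0.931) and *Cxcr4* to *Ccl9* (0.875). These values describe libraries that share their genotype groups. Among genes whose log2 CPM averaged 1 or more, the closest to *Ccl3* were *Fos* (0.972), *Zfp36* (0.963), and *Stambpl1* (0.953). *Fos* is an immediate-early transcription factor, and *Zfp36* encodes a protein that destabilizes cytokine mRNA. *Gpr65*, *Plp2*, and *Tmem109* were closest to *Cxcr4* (0.932 to 0.957), *Tpd52*, *Cnn3*, and *Milr1* to *Ccr2* (0.958 to 0.974), *Hpse*, *Klhl5*, and *Chn2* to *Cx3cr1* (0.941 to 0.961), *Fcgr2b*, *Txndc15*, and *Bad* to *Ccl4* (0.910 to 0.921), *Tent2*, *F13a1*, and *Ctsh* to *Ccl6* (0.932 to 0.934), and *Csrp1*, *Arpc5l*, and *Ebag9* to *Ccl9* (0.942 to 0.956).

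Genes of NF-κB feedback and NF-κB targets were measured beside the chemokines. Of 19 tested, 12 passed the test with higher levels in NPmut than in control mice, 8 of them as DEGs, and 0 were lower, where 5.25% of all genes passed with higher levels and 2.27% were higher DEGs. The median log2 fold change of the list was 0.91. *Tnf* differed by 2.40 ± 0.379 (adjusted p = 0.00136, edgeR) and *Il1b* by 2.76 ± 0.798 (0.0400), both inflammatory cytokines, and the NF-κB inhibitors *Tnfaip3* and *Nfkbia* by 2.01 ± 0.462 (0.0167) and 1.99 ± 0.193 (6.08e-05). The summed level of the list was 540 to 559 CPM in control mice and 923, 768, 623, and 907 CPM in NPmut mice 1 to 4, the lowest being mouse 3. In that mouse *Il1b* was at 0.215 CPM and *Tnfaip3* at 14.6 CPM, within or below the range of the control mice, whereas *Tnf* at 5.65 and *Nfkbia* at 43.4 CPM were above it. The part of these genes in the chemokine differences was not tested.

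Markers of monocytes and macrophages also moved with the NPmut group. Of 16 that passed the filter without the NPmut libraries, 9 were DEGs with higher levels and 0 were lower, against 2.27% and 3.71% of all genes. The median log2 fold change of the 16 was 1.53. Among the DEGs, *Lgals3*, *Klf4*, *Ctss*, and *Ms4a6c* had the largest, of 3.97, 2.84, 2.64, and 2.02 (adjusted p = 0.00141, 0.0106, 1.76e-04, and 0.00125, edgeR). The summed level of the whole marker list was 815 to 970 CPM in control, 706 to 1379 CPM in p53mut, 716 to 1111 CPM in NrasG12D, and 2187 to 3578 CPM in NPmut mice. NPmut mouse 3, with 2284 CPM, was within the range of the other NPmut mice. Of 17 neutrophil and GMP markers 1 was higher and 0 were lower, at sums of 12072 to 14989 CPM in control and 13962 to 23190 CPM in NPmut mice. The part of cell composition in the chemokine differences was not tested.

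Interferon-stimulated genes, *Cxcl10* aside, were lower rather than higher where they passed the test, with 1 exception. Of 20 tested, 1 passed the test with a higher and 7 with a lower level in NPmut than in control mice, 5 of the latter as DEGs, where 5.25% of all genes passed with a higher and 5.58% with a lower level and 3.71% were lower DEGs. The decreases were led by *Oas2* (-2.16 ± 0.335, adjusted p = 0.00119, edgeR), *Ifi44* (-1.46 ± 0.369, 0.0208), *Ddx58* (-1.35 ± 0.199, 9.10e-04), and *Ifit1* (-1.19 ± 0.338, 0.0351). The median log2 fold change of the 20 genes was -0.73. Their summed level was 287 to 330 CPM in control, 456 to 611 CPM in NrasG12D, and 288 to 382 CPM in NPmut mice. Much of these sums is *Gbp3*, at 64.9 to 84.7 CPM in control and 95.4 to 181 CPM in NPmut mice. Since control mice had received pI-pC and NPmut mice had not, its part cannot be told apart from that of the genotype.

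**Figure D4:**
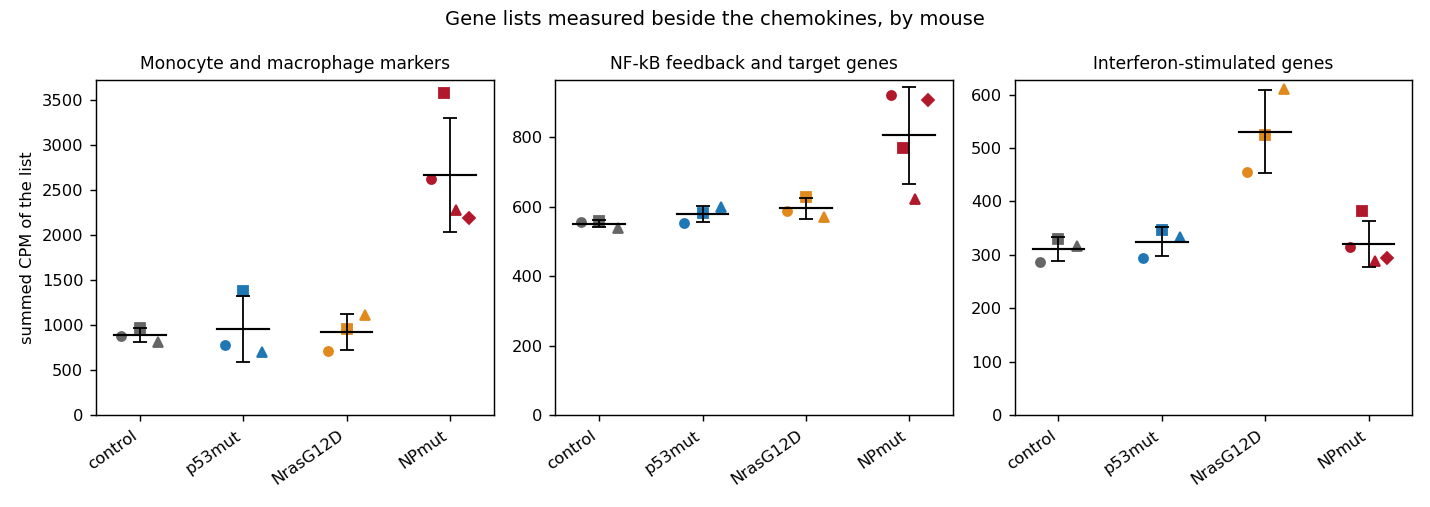
The summed CPM (y axis, from 0) of monocyte and macrophage markers, NF-κB feedback and target genes, and interferon-stimulated genes is plotted for every mouse of the 4 genotypes (x axis), with mean and SD; symbols are replicates as in the plot of the 10 genes. The monocyte sums of NPmut mice, 2187 to 3578 CPM, lie above all other mice, and the interferon sums are highest in NrasG12D mice, at 456 to 611 CPM.

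The remainder of the chemokine family was mostly below the filter, with 8 of 35 other chemokines and 5 of 20 other receptors tested. Of these, 3 chemokines and 1 receptor passed the filter only with the NPmut libraries and were set aside from the counts. In NPmut against control mice 0 of the remaining 5 chemokines and 4 receptors were higher DEGs, against 2.27% of all genes. Among them 1 was lower, against 3.71%. That was *Pf4*, the platelet chemokine CXCL4 that megakaryocytes make, at 16.5, 17.9, and 26.6 CPM in control mice and 3.34, 2.06, 5.17, and 1.01 CPM in NPmut mice, a log2 fold change of -2.78 ± 0.354 (adjusted p = 5.27e-04, edgeR). In control mice *Pf4*, at 28.2 RPKM, had a level close to that of *Ccl9*. Of 10 megakaryocyte markers tested, 9 were lower DEGs in NPmut mice, against 3.71% of all genes. *Ccr9*, a receptor of plasmacytoid dendritic and thymus-seeding cells, was higher in NPmut than in p53mut mice (2.74 ± 0.783, adjusted p = 0.0401, edgeR). It was at 2.68, 1.33, 8.77, and 1.35 CPM in NPmut mice, mouse 3 being the highest, and at 0.813, 0.370, and 0.404 CPM in p53mut mice. Control mice, at up to 1.42 CPM, and NrasG12D mice, at up to 2.29 CPM, overlapped the NPmut mice. Against neither of these groups was *Ccr9* a DEG. *Ccl25*, *Cxcr2*, *Ccrl2*, and *Ccl27a*, the next most abundant genes of the family in control mice, did not pass the test in NPmut mice (adjusted p = 0.378, 0.858, 0.295, and 0.247). *Cxcr2*, the receptor of CXCL2, was at 7.09 ± 0.491 CPM in control mice (n = 3) and 7.46 ± 1.27 CPM in NPmut mice (n = 4).

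**Figure D5:**
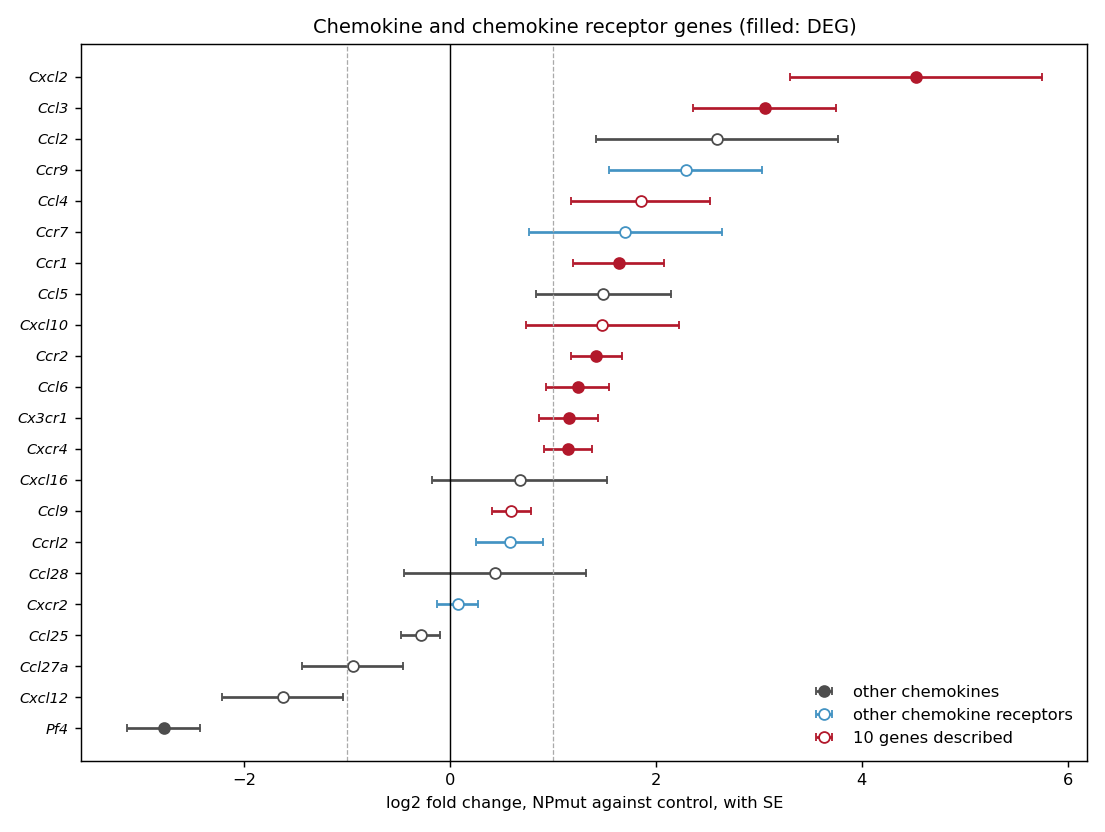
The log2 fold change of NPmut against control mice with its SE (x axis) is shown for chemokine and chemokine receptor genes that were tested (y axis, sorted); filled circles are DEGs and dashed lines mark a fold change of 2. The 10 genes described lie between 0.59 and 4.53, and *Pf4* is lowest at -2.78.

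Ligands of the receptors that were high in NPmut mice are named here after their values had been seen. *Cxcl12*, the CXCR4 ligand, was at 2.37 ± 0.720 CPM in control and 0.755 ± 0.294 CPM in NPmut mice, with a log2 fold change of -1.63 that did not pass the test (adjusted p = 0.0911, edgeR). *Ccl2*, the CCR2 ligand, passed the filter through its NPmut libraries alone, as *Cxcl2* did. It was at 0.192 ± 0.2398 CPM in control and 1.22 ± 1.12 CPM in NPmut mice, and did not pass the test (adjusted p = 0.181, edgeR). NPmut mice 1 to 4 were at 1.37, 2.67, 0, and 0.843 CPM.

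Genes that act downstream of chemokine receptors differed by less than 2-fold where they passed the test, but for 1. Of 24 tested, 10 passed the test with higher levels in NPmut than in control mice and 0 were lower, but with a fold change of at least 2 in *Rgs2* alone, which encodes a regulator of G protein signaling (1.15 ± 0.303, adjusted p = 0.0273, edgeR). The other 9 were *Gnai2*, *Gng2*, *Pik3r5*, *Arrb2*, *Grk2*, *Grk6*, *Rac2*, *Vav1*, and *Prex1*, between 0.41 and 0.72 on the log2 scale, and 5.25% of all genes passed the test with higher levels. *Rgs2* was at 28.2, 26.1, and 29.1 CPM in control mice and at 58.5, 84.7, 28.4, and 75.3 CPM in NPmut mice, where again mouse 3 alone lay within the control range.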

How the data were processed

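RNA from 50000 sorted Lin-cKit+ BM cells per mouse was made into libraries with a SMARTer stranded total RNA kit for small inputs. Per the labels, the processing notes of the submitters name STAR 2.6.1d, R 3.6.1, DESeq2 1.26.0, and the build GRCm38.p6; the counting program, annotation release, and strand setting are not given in the sources used here. The authors deposited raw counts per gene in 1 table of 54838 Ensembl identifiers, of which 54809 are in GENCODE M21, which gave symbols, coordinates, and exonic lengths. Lines that name no gene numbered 0.

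The test was run with edgeR 4.0.16 (R 4.3.3): filterByExpr kept 17795 genes, TMM factors scaled the libraries, and 1 quasi-likelihood model with a mean for each group was fitted to all 13 libraries. Benjamini-Hochberg adjustment covered all tested genes, and a DEG needed an adjusted p below 0.05 with a log2 fold change of 1 or more in size. SEs were derived from the F statistic, CPM and RPKM use the TMM-scaled library sizes, and log2 CPM has a prior count of 2. Counting intervals and floors (3 counts) cover counting error only. At 12576174 counts in the smallest library, genes such as *Cxcl2*, *Cxcl10*, and *Ccr1* rest on few reads.

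The 10 genes and the lists were chosen with earlier results of these data known. Genes named in addition were the DEGs among other chemokines and receptors, the 5 of these with the highest RPKM in control mice, the DEGs with the largest fold changes in NPmut against control mice (at most 4 a list), and the 3 genes closest to each of the 10 by Pearson r. *Cxcl12*, *Ccl2*, *Cd3e*, *Kit*, *Nkg7*, *S100a9*, *Gbp3*, *Siglech*, *Batf3*, and genes of receptor signaling under a 2-fold change are outside this rule. Control and p53mut mice with the same replicate number had weakly correlated deviations (0.152 to 0.166 in 3 pairs). Same-number mice of the other pairs of groups had correlations of -0.114 to 0.294, and mice with different numbers were not compared. A block for the number left 0 of the 10 genes called between control and p53mut mice. Neither labels nor methods say what the number marks. Alternatives were DESeq2 1.42.0, other factors and filters, only the compared groups, the block, the background reads as a covariate, and each mouse left out. The procedure was tested on simulated data. Columns without a sample numbered 0. Some genes of the lists are not reported here.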

Additional observations from a re-analysis of the deposited data

Results flagged for a closer look

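*Cxcl2* in NPmut mouse 3 stood far from the other NPmut mice, with 0 reads against 46, 62, and 35. Its gap to the nearest of the others was 0.931 of the range of the group, past the 95% limit for 4 values. Chance gives such a gap in about 1 of 20 groups, and 10 genes were examined. *Ccl3* and *Ccl4* came close in the same mouse, with gaps of 0.8004 and 0.741.

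The interaction of *Ccr2*, at 1.54 on the log2 scale, passed the test narrowly in the model reported (adjusted p = 0.0477, edgeR). NPmut mice also differed from the other groups in pI-pC and disease stage, so this departure cannot be assigned to the alleles. All 4 NPmut mice were at 77.1 CPM or more, and no mouse of the other groups was above 58.9 CPM. The call was lost in 13 of 20 alternatives, among them the removal of any 1 of the control, p53mut, or NrasG12D mice. The highest adjusted p-value, 0.137, came without p53mut mouse 3.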

How the results depend on the processing

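The direction of NPmut against control mice was the same in all alternatives that gave a value for each of the 10 genes, and 26 of 152 such values fell to the other side of the threshold while 10 passed it anew. The number of DEGs among the 10, 7 in the model reported with *Cxcl2* counted, was 4 with at least 10 counts required in every library, 3 with the background reads as a covariate (*Cxcr4*, *Ccr2*, and *Ccl9*), 4 with only the compared groups, and 2 to 8 with single mice left out; it was 2 without control mouse 2 or 3 (*Cxcr4* and *Ccr2*), 4 without NPmut mouse 2, and 8 without NPmut mouse 3. Against NrasG12D mice the 5 became 2 with at least 10 counts, 3 with only the compared groups, and 3 to 6 with single mice left out. Against p53mut mice the 4 became 7 with DESeq2, 7 without a filter, 2 with the background reads, 1 with only the compared groups, and 1 to 6 with single mice left out. For the interaction the 1 became 0 with library totals, 4 with DESeq2, 5 without a filter, 0 with the background reads, and 0 to 3 with single mice left out. The stricter filter tests fewer genes and drops *Cxcl2* among others. *Cxcl2* also fell below the usual filter without NPmut mouse 1, 2, or 4, so the numbers of DEGs there do not include it. Fewer libraries enter the fits of the compared groups. The cause of the other changes was not tested.

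No source says that the replicate number pairs the samples. A block for it gave 5 DEGs for NPmut against control, where *Ccl3* (adjusted p = 0.0629, edgeR) and *Cxcl2* (0.0777) lost their calls. It gave 6 against NrasG12D, 3 against p53mut mice, and 2 for the interaction.

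Every reversed value was of a difference that was not called. For p53mut against control mice *Ccr2* was 0.00607 with the background reads, and *Cx3cr1* was -0.0321 with library totals, -0.0022 without a filter, -0.0112 with at least 10 counts, -0.0205 with the replicate block, -5.8e-04 with only the compared groups, and -0.0400 with these and the block. With single mice left out the values were -0.14 to 0.87 for *Ccr1*, -0.18 to 0.0948 for *Ccr2*, -0.21 to 0.26 for *Cx3cr1*, -0.46 to 0.0728 for *Ccl3*, -0.38 to 0.40 for *Ccl4*, -0.26 to 0.33 for *Ccl6*, -0.0202 to 1.27 for *Cxcl2*, and -0.77 to 0.58 for *Cxcl10*. For NrasG12D against control mice *Ccr2* was 0.22 and *Ccl6* 0.0393 with the background reads, and with single mice left out *Ccr1* was -0.22 to 0.79, *Ccr2* -0.15 to 0.13, and *Ccl4* -0.67 to 0.0678. For NPmut against NrasG12D mice *Cxcl10* was -0.0186 to 1.13, and for the interaction *Cxcr4* was -0.0491 to 0.29, *Ccl9* -0.0912 to 0.25, and *Cxcl10* -0.23 to 1.38, with single mice left out.

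Over all genes, the DEGs of NPmut against control mice ranged from 217 to 542 higher (404 reported) and from 231 to 1026 lower (661), those against NrasG12D mice from 143 to 432 (327) and 211 to 586 (459), those against p53mut mice from 172 to 531 (375) and 259 to 687 (552), those of NrasG12D against control mice from 0 to 66 (1) and 0 to 93 (0), those of p53mut against control mice from 0 to 3 (0) and 0 to 13 (0), and those of the interaction from 6 to 308 (70) and 59 to 349 (158). Depth limits *Cxcl2*, *Cxcl10*, and *Ccr1* most, which had fewer than 10 reads in at least 1 control library.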

Other observations

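Markers of other blood cells were measured in the same libraries, and the counts are of NPmut against control mice. Over all genes 2.27% were higher and 3.71% lower DEGs. With *Siglech* and *Batf3* set aside, which passed the filter only with the NPmut libraries, 6 of 9 dendritic cell markers were DEGs with higher levels and 1 with a lower level. Lower DEGs were 8 of 12 HSC and MPP markers, 3 of 12 erythroid and MEP markers, 3 of 8 mast cell and basophil markers, and 3 of 6 stromal and endothelial markers, with 0 higher in each. Of 7 B lymphoid markers 1 was a higher DEG, *Dntt*, at a log2 fold change of 1.55 ± 0.405 (adjusted p = 0.0304, edgeR). Of 3 T and NK markers tested, 1 passed the filter only with the NPmut libraries, and 0 of the other 2 were DEGs by edgeR. Over all 3, 1 had an unadjusted p-value under 0.05.

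Against NrasG12D mice, which like the control mice had received pI-pC, 11 of 20 interferon-stimulated genes were lower DEGs in NPmut mice, against 2.58% of all genes, with a median log2 fold change of -1.79, whereas *Cxcl10*, which belongs to the same class, differed by 0.35 ± 0.694 (adjusted p = 0.801). In NrasG12D against control mice 18 of these 20 genes had an unadjusted p-value under 0.05, as did 9.10% of all genes, 0 were DEGs by edgeR, and their median log2 fold change was 0.88.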
